A study of Mus musculus with 10 samples.

Results

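Insulin signalling was followed through 9 genes in cultured mouse fat cells: the insulin receptor gene Insr, the adaptor genes Irs1 and Irs2, the PI3-kinase subunit gene Pik3r1, the kinase genes Akt1 and Akt2, the transcription factor gene Foxo1, the vesicle regulator gene Tbc1d4, and Slc2a4, which encodes the insulin-responsive glucose transporter GLUT4. They were chosen by gene symbol, and each symbol matched 1 of the 28987 Ensembl gene IDs listed for every library. All 9 reached a level of 1 TPM in at least 2 libraries and were therefore among the 14166 genes tested. TPM counts transcripts relative to the total of a library and is scaled for their length, so that levels of different genes can be set side by side.

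RNA was sequenced in 10 libraries that form 5 groups of 2. The cells came from enzyme-digested inguinal fat of male C57BL/6 mice aged 6 to 8 weeks and were grown to confluence. The labels call the source primary white adipocytes in one field and white adipose tissue in another, and they name neither a genetic change nor added insulin in any group. Every group was treated for 24 h, with saline as the control, with BAFF at 500 ng/ml, with APRIL at 500 ng/ml, with LPS at 100 ng/ml, or with norepinephrine at 1 mM. BAFF and APRIL are recombinant cytokines of the tumour necrosis factor family that are known for supporting B cells. LPS is a bacterial cell wall component that activates innate immune signalling, and norepinephrine is the sympathetic transmitter that drives fat breakdown in adipocytes. No label states that replicate libraries came from separate mice or separate cultures. The spread behind every p-value here is that between the sequenced libraries, which may be technical.

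When insulin binds its receptor in fat cells, the receptor phosphorylates insulin receptor substrates, which recruit PI3-kinase through its regulatory subunit. PI3-kinase activates Akt, which holds FoxO1 out of the nucleus and phosphorylates the product of Tbc1d4, a brake on vesicles that carry GLUT4. Release of that brake brings GLUT4 to the cell surface, where it takes up glucose. The measurements below are RNA levels. They do not show protein, phosphorylation or glucose uptake.

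Both libraries labelled APRIL were unlike the rest. Their log2 profiles correlated with the 8 other libraries at 0.850 to 0.886 across genes, against 0.948 to 0.991 among those 8. The summed level of 4 Y-linked genes was 0.489 and 0.775 TPM in them, against 93.8 to 123 TPM in the 8 others, although all samples are labelled male. The other groups were therefore tested both in the fit over all 10 libraries and in the fit over the 8 libraries without those labelled APRIL. The 16 adipocyte marker genes were all detected in saline, 15 of them at 1 TPM or more. They summed to between 6391 and 17185 TPM in the 8 libraries and to 6522 and 2998 TPM in those labelled APRIL. Fibroblast and progenitor genes (12) summed to between 8818 and 14165 TPM in the 8 libraries and to 2486 and 2998 TPM in those labelled APRIL, and smooth muscle and pericyte genes (8) to between 942 and 1837 TPM against 487 and 767 TPM. Macrophage genes (12) summed to between 1070 and 1612 TPM in replicate 1 and to between 291 and 492 TPM in replicate 2 of the 4 groups other than APRIL. Skeletal muscle genes (14) ran the other way in these groups, at 21.3 to 34.6 TPM in replicate 1 and 137 to 244 TPM in replicate 2. Endothelial genes (8) summed to between 13.1 and 22.5 TPM in the 8 libraries and to 5.39 and 9.39 TPM in those labelled APRIL. Lymphocyte genes (9) summed to between 1.01 and 3.04 TPM and to 7.47 and 8.77 TPM. The files give TPM without counts, so the read depth is unknown and the spread between 2 libraries is the only measure of error. In such bulk RNA, fewer cells of a type and less RNA per cell cannot be told apart.

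In saline the mean levels of the 9 genes ran from 5.16 to 120.3 TPM. Akt1 had a mean level of 120.3 ± 10.1 TPM (SD, n = 2) and Akt2 of 101 ± 7.57 TPM, followed by Pik3r1 at 23.3 ± 1.42 TPM. Slc2a4 (15.7 ± 1.63 TPM) and Insr (14.6 ± 0.430 TPM) overlapped in their libraries. Tbc1d4 (6.97 ± 0.654 TPM) overlapped Irs1 (6.28 ± 0.722 TPM), and Irs2 (5.28 ± 0.175 TPM) overlapped Foxo1 (5.16 ± 0.109 TPM) at the bottom of the order. The same first 3 places were held in BAFF. In LPS, Irs2 stood in the fifth place, Slc2a4 in the eighth at a mean of 4.36 ± 0.969 TPM, overlapping Foxo1 and Tbc1d4, and Irs1 in the ninth at 2.21 ± 1.14 TPM. In norepinephrine, Akt2 at 162.9 ± 3.95 TPM stood above Akt1 at 105.8 ± 0.497 TPM. Among the libraries labelled APRIL, Irs2 was in the third place at 55.8 ± 13.6 TPM and Tbc1d4 was last at 2.75 ± 0.198 TPM.

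**Figure D1:**
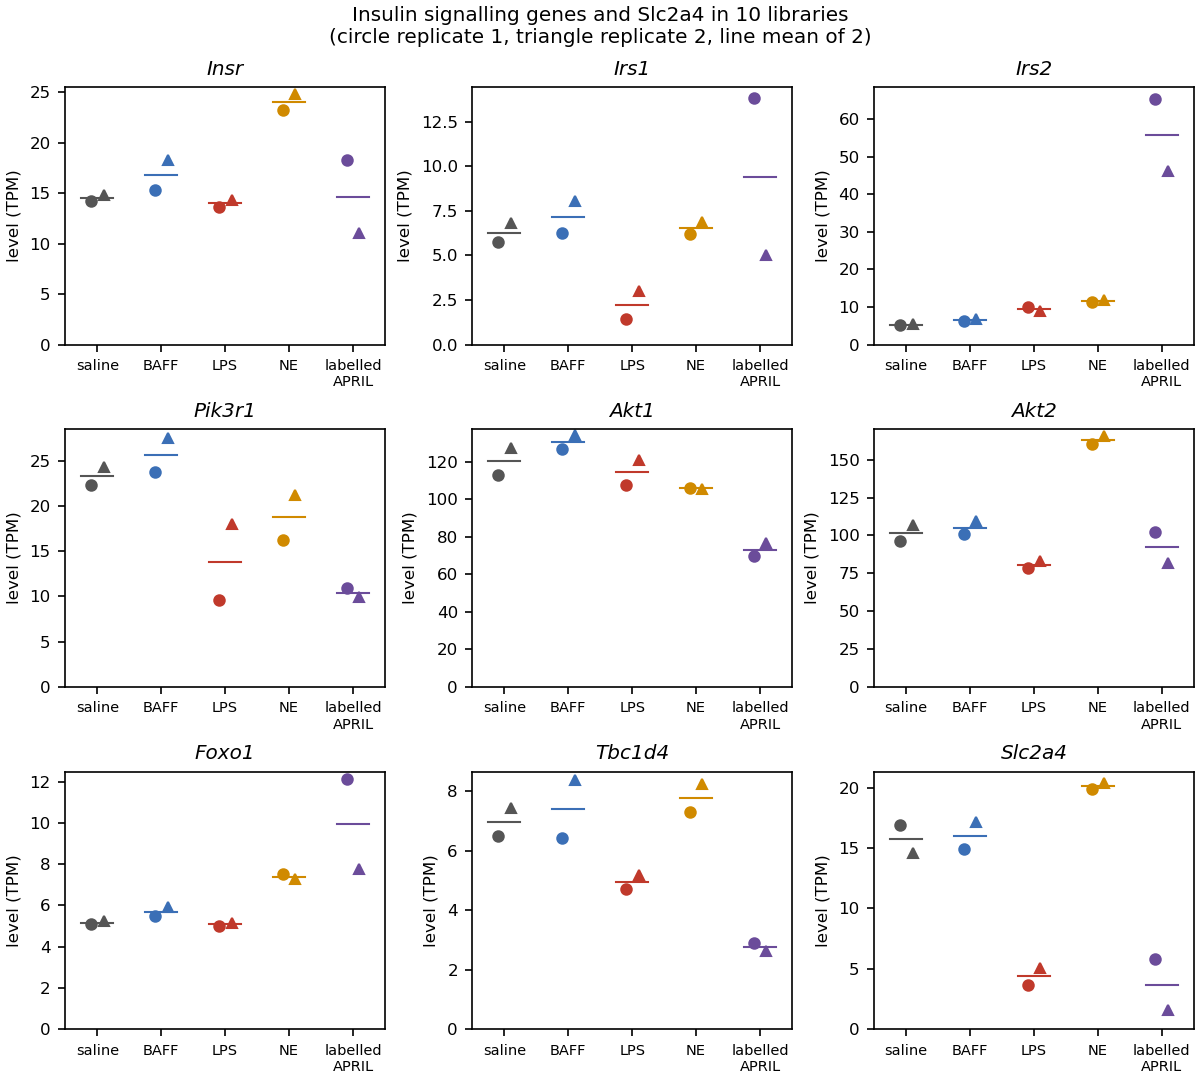
Level of each of the 9 genes in TPM (y axis, from 0) in every library, by treatment group (x axis; NE, norepinephrine). Circles are replicate 1, triangles replicate 2 and lines the mean of 2. Slc2a4 and Irs1 are lowest in LPS among the first 4 groups, Akt2 and Insr are highest in norepinephrine, and Irs2 reaches 46.2 and 65.4 TPM in the libraries labelled APRIL.

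Each treatment was compared with saline, BAFF with the libraries labelled APRIL, and LPS with norepinephrine. The test was limma on log2(TPM + 1), with p-values adjusted by Benjamini and Hochberg over all 14166 genes and a threshold of 0.05. In the fit over 8 libraries the filter kept 13730 genes, and its adjusted p-values and shares of all genes refer to these. Fold changes below are on that log2(TPM + 1) scale, which understates changes of low genes, and every adjusted p comes from limma. The 4 comparisons with saline share the same saline libraries.

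Under LPS, 0 of the 9 genes passed the threshold in the fit over all 10 libraries, where 3.8% of all genes did, and 6 of the 9 had an unadjusted p under 0.05, as did 16.5% of all genes. Both LPS libraries were above both saline libraries for Irs2, which was so for 24.2% of all genes. They were below for Irs1, Pik3r1, Akt2, Tbc1d4 and Slc2a4, which was so for 25.5% of all genes. In the fit over 8 libraries, Irs2 was called higher and Irs1 and Slc2a4 lower, against 6.89% of all genes called there (4.55% higher and 2.34% lower). With the replicate number added to that fit as a block, 6 of the 9 were called, Irs2 higher and Irs1, Pik3r1, Akt2, Tbc1d4 and Slc2a4 lower, against 12.4% of all genes. This last fit was chosen after seeing that the replicate numbers deviate together in these 4 groups. The median log2 difference of the 9 genes was -0.33, against -0.01 for all genes tested.

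Under norepinephrine, Irs2 rose and the other 8 genes did not pass, where 0.699% of all genes did and 0.614% rose. Both norepinephrine libraries were above both saline libraries for Insr, Irs2, Akt2, Foxo1 and Slc2a4, as for 34.0% of all genes, and below for Pik3r1 and Akt1, as for 22.9%. In the fit over 8 libraries Irs2, Akt2, Insr and Foxo1 were called higher, against 6.22% of all genes (5.04% higher), and the same 4 were called with the replicate block, against 12.7%. The median difference was 0.34 for the 9 genes and 0.04 for all genes.

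Under BAFF, 0 of the 9 genes passed in limma's fit over all 10 libraries, 0 had an unadjusted p under 0.05 (2.84% of all genes did), and 0.0141% of all genes were called. Both BAFF libraries were above both saline libraries for Insr, Irs2 and Foxo1, which was so for 40.4% of all genes, and they overlapped saline for the 6 others. In the fit over 8 libraries 0 of the 9 were called, against 0.0146% of all genes. There 1 of the 9 (Irs2) had an unadjusted p under 0.05, as did 4.89% of all genes. All 9 differences lay between 0.02 and 0.26, with a median of 0.12 against 0.11 for all genes. Scaling by median ratios removes a shift common to all genes. It moved the median of the 9 genes to 0.01 and, by that construction, took the small differences of Akt1, Akt2, Tbc1d4 and Slc2a4 below zero. No direction is given for BAFF.

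Against saline, Irs2 and Foxo1 rose and Pik3r1, Akt1, Tbc1d4 and Slc2a4 fell in the libraries labelled APRIL. These 6 of 9 genes stand beside 58.1% of all genes called in that comparison (33.1% rose and 25.0% fell), so the share is near the background. The median difference was -0.14 for the 9 genes and 0.08 for all genes. BAFF against the libraries labelled APRIL gave the same 6 genes in the opposite sense, where 57.3% of all genes were called (28.3% higher and 29.0% lower in BAFF), and both comparisons contain the same libraries labelled APRIL. Of the marker genes tested against saline there, 7 of 11 fibroblast, 5 of 7 endothelial, 7 of 8 smooth muscle and pericyte and 8 of 15 adipocyte markers fell. Both lymphocyte markers tested, 1 smooth muscle and pericyte marker and 2 adipocyte markers rose. The part of these cell types in the differences of the 9 genes was not tested.

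**Figure D2:**
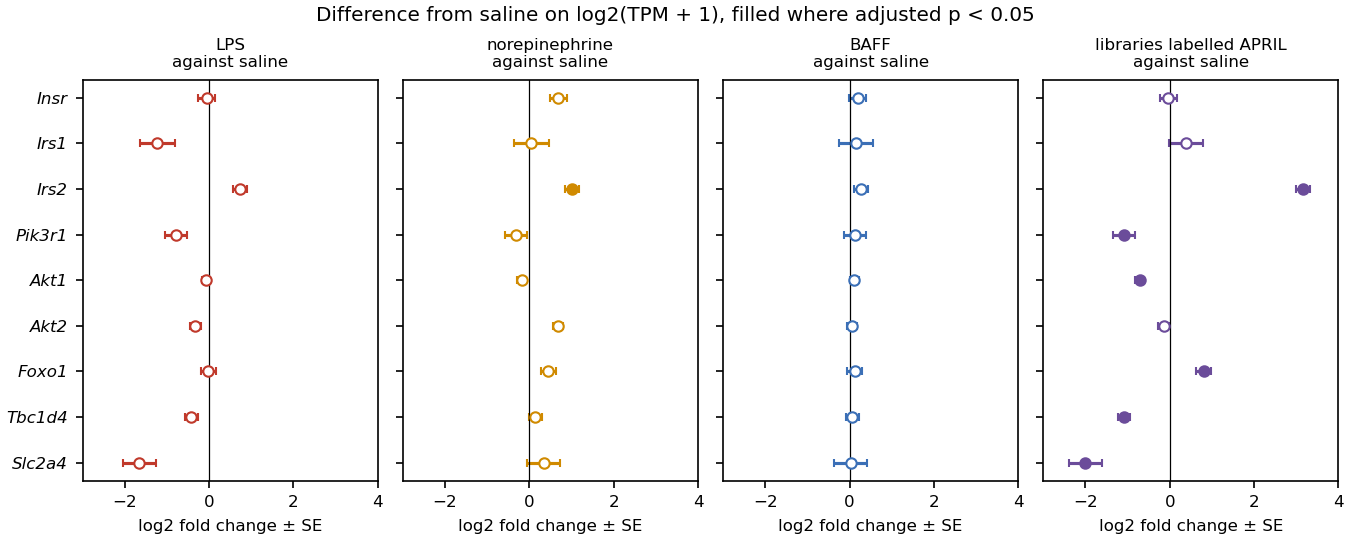
Difference of each gene from saline on the log2(TPM + 1) scale (x axis) with its standard error, in 1 panel per treatment, from the fit over all 10 libraries. Filled points have an adjusted p under 0.05: none under LPS or BAFF, Irs2 under norepinephrine, and 6 genes in the libraries labelled APRIL.

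Insr encodes the receptor itself and lies on chromosome 8 (chr8:3122061-3279617, minus strand, mm10). Its level was 14.3 and 14.9 TPM in saline, 15.4 and 18.3 TPM in BAFF, 13.6 and 14.3 TPM in LPS, 23.2 and 24.8 TPM in norepinephrine, and 18.3 and 11.0 TPM in the libraries labelled APRIL. Both norepinephrine libraries were above every other library. Against saline the norepinephrine difference was 0.68 ± 0.20 (SE), with an adjusted p of 0.160 over 10 libraries and 0.0202 over 8. The range over 21 alternative fits was 0.00852 to 0.491. In LPS the difference was -0.05 ± 0.20 (adjusted p = 0.950, and 0.817 over 8), and the LPS and saline libraries overlapped.

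Irs1 and Irs2 encode the substrates that carry the signal from the receptor to PI3-kinase, and their levels ran apart. Irs1 (chr1:82233101-82291416, minus strand) was at 5.77 and 6.79 TPM in saline, 6.28 and 8.04 TPM in BAFF, 1.41 and 3.01 TPM in LPS, 6.20 and 6.86 TPM in norepinephrine, and 13.8 and 5.01 TPM in the libraries labelled APRIL. Both LPS libraries lay below all others, and the libraries labelled APRIL lay on both sides of saline. The LPS difference was -1.22 ± 0.41, with an adjusted p of 0.177 over 10 libraries and 0.0386 over 8, and 0.00844 to 0.594 over the alternatives.

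Irs1 shares sequence with another gene model. Gm9747 lies inside Irs1 on the opposite strand. Over 2822 bases its transcript is identical to that of Irs1 read on the other strand. The labels do not say whether strand was used when transcripts were quantified, so reads of the 2 models may not be told apart and the values of Irs1 are uncertain. Gm9747, named after its values were seen, was at 4.07 and 5.30 TPM in saline, 1.41 and 1.50 TPM in LPS, and 0 TPM in both libraries labelled APRIL. It fell in LPS by 1.20 on the log2 scale (SE 0.15, adjusted p = 0.00644). The sum of both models was 9.84 and 12.1 TPM in saline and 2.82 and 4.51 TPM in LPS, so the LPS libraries were also lowest in the sum. In the libraries labelled APRIL the sum was 13.8 and 5.01 TPM.

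Irs2 (chr8:10984681-11008458, minus strand) was at 5.16 and 5.40 TPM in saline, 6.21 and 6.87 TPM in BAFF, 10.1 and 8.93 TPM in LPS, 11.4 and 11.8 TPM in norepinephrine, and 65.4 and 46.2 TPM in the libraries labelled APRIL. No group overlapped saline. Irs2 rose in norepinephrine by 1.01 ± 0.16 (adjusted p = 0.0476), a mean TPM 2.20 times that of saline. The call is close to the threshold. It was lost without any 1 of the 8 libraries of saline, BAFF, LPS and norepinephrine (adjusted p 0.0736 to 0.265 without 1 of them), and it was lost with a pseudocount of 0.1 (0.0548) or 0.5 (0.0506), without the low-level filter (0.0879), without the variance trend (0.0567) and without mitochondrially encoded genes (0.0617). Over the 8 libraries its adjusted p was 0.00697, and the range over all 21 alternatives was 0.00575 to 0.265. Its size moved only between 0.95 and 1.12 over these alternatives.

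In LPS the difference of Irs2 was 0.74 ± 0.16, with an adjusted p of 0.0529 over 10 libraries and 0.0106 over 8, and 0.00904 to 0.271 over the alternatives. In the libraries labelled APRIL, Irs2 rose by 3.16 ± 0.16 (adjusted p = 1.04e-05), a mean TPM 10.6 times that of saline, and it passed in all 19 alternatives. The ratio of Irs2 to Irs1 TPM, computed within each library, was 0.894 and 0.796 in saline and 0.989 and 0.854 in BAFF. It was 7.19 and 2.96 in LPS, 1.84 and 1.72 in norepinephrine, and 4.74 and 9.22 in the libraries labelled APRIL. Irs2 was thus the less abundant substrate in every saline and BAFF library and the more abundant one in all 6 others. Against the sum of Irs1 and Gm9747, however, Irs2 stood at 0.524 and 0.447 in saline, 0.611 and 0.545 in BAFF, 3.59 and 1.98 in LPS, and 1.03 and 1.03 in norepinephrine, where it was close to that sum (11.1 and 11.5 TPM). With 2 libraries a group an exact permutation test of a ratio cannot reach 0.05, and none was run.

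The promoters of Irs1 and Irs2 are shown because their levels lay on opposite sides of saline in LPS, and that of Akt2 because it had the smallest adjusted p of the 9 between LPS and norepinephrine. RefSeq (GRCm38.p6) promoter windows matched 7 of the 9 genes by symbol, while Insr and Slc2a4 had no entry. Distances are counted from the RefSeq starts. For Irs1 and Irs2 these lie upstream of the GENCODE gene ends given above (82291416 and 11008458). Each line gives the 250 bases before the transcription start, 5′ to 3′ on the gene's strand: Irs1 from chr1:82291440-82291689 (minus), Irs2 from chr8:11008930-11009179 (minus) and the first Akt2 start from chr7:27591302-27591551 (plus). Capitals mark the E-box letters CACGTG and the short cAMP response element letters TGACG, searched on both strands.
Irs1: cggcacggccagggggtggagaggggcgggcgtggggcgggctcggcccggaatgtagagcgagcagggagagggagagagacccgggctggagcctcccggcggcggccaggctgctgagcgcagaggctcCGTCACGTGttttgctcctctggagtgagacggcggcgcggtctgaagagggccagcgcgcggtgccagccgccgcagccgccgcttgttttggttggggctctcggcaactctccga
Irs2: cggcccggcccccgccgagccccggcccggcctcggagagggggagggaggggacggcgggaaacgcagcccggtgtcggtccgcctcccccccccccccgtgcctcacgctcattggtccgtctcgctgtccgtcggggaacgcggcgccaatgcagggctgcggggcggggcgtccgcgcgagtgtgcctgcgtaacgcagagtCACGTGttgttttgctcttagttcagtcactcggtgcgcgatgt
Akt2: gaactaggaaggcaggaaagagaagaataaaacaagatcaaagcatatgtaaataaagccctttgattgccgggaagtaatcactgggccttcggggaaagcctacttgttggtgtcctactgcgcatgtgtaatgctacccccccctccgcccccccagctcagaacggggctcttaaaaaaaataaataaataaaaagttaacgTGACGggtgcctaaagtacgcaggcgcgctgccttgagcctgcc

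Both substrate promoters hold an E-box, at 115 to 110 bases before the Irs1 start and at 44 to 39 bases before the Irs2 start. So do 6.02% of the 32851 mouse promoter windows, in each of which the 250 bases before a start were searched. In Irs1 the E-box overlaps CGTCA, which is TGACG read on the other strand. On either strand, TGACG stands in 17.8% of all windows and also in the Akt2 window shown. Of the other Akt2 starts, the window at chr7:27605547-27605796 holds it, and those at chr7:27596580-27596829 and chr7:27607086-27607335 do not. Around the E-box Irs1 and Irs2 share the run gtCACGTGtt, found in 0.07% of all windows. They also share tgttttgctc (0.0639% of windows), which overlaps the end of that run and begins 111 bases before the Irs1 start and 37 before the Irs2 start. Both runs came from a search of the Irs1 and Irs2 windows for shared stretches. Only stretches that hold the E-box or the letters ttttgctc were kept. The shares of windows that hold these runs do not measure how often a pair of windows shares a run. The whole cAMP response element TGACGTCA (1.55% of windows) and the FoxO letters GTAAACA (3.17%) are not in these 3 windows on either strand. The letters CCAAT (33.8% of windows) stand in the Irs2 window only, and the GC-box letters GGGCGG (32.7%) in all 3. GC content was 72.4% for Irs1, 72.8% for Irs2 and 48.8% for Akt2, against a median of 52.4% over all windows. These are matches of letters and say nothing about binding.

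Pik3r1 encodes the main regulatory subunit of PI3-kinase, which docks on the phosphorylated substrates (chr13:101680563-101768217, minus strand). Its level was 22.3 and 24.3 TPM in saline, 23.8 and 27.6 TPM in BAFF, 9.58 and 18.0 TPM in LPS, 16.2 and 21.2 TPM in norepinephrine, and 10.9 and 9.97 TPM in the libraries labelled APRIL. The LPS libraries were both below saline and differed from each other nearly as much as from saline. The LPS difference was -0.78 ± 0.26 (adjusted p = 0.181), 0.164 over the 8 libraries and 0.0291 to 0.595 over the alternatives. Without LPS replicate 2 it was called, at an adjusted p of 0.0291. Pik3r1 fell in the libraries labelled APRIL by 1.09 on the log2 scale (SE 0.26, adjusted p = 0.00797) and passed in all 19 alternatives.

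Akt1 and Akt2 encode the kinases through which most effects of insulin run, and Akt2 is the form tied to glucose uptake in fat and muscle. Akt1 (chr12:112653821-112674884, minus strand) was at 113 and 127 TPM in saline, 127 and 134 TPM in BAFF, 108 and 121 TPM in LPS, 106 and 105 TPM in norepinephrine, and 69.6 and 76.5 TPM in the libraries labelled APRIL. Its 8 values outside APRIL stayed within 105 to 134 TPM. Neither LPS (-0.07 ± 0.11, adjusted p = 0.824) nor norepinephrine (-0.18 ± 0.11, adjusted p = 0.415) passed, and neither passed in any alternative (0.719 and 0.292 over 8 libraries). Akt1 fell in the libraries labelled APRIL by 0.71 on the log2 scale (SE 0.11, adjusted p = 0.000855).

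Akt2 (chr7:27591552-27640826, plus strand) was at 96.0 and 107 TPM in saline, 101 and 109 TPM in BAFF, 78.4 and 82.8 TPM in LPS, 160.1 and 166 TPM in norepinephrine, and 102 and 82.1 TPM in the libraries labelled APRIL. The norepinephrine libraries were above all others and the LPS libraries were below saline and BAFF. Against saline the norepinephrine difference was 0.68 ± 0.12, with an adjusted p of 0.0610 over 10 libraries, 0.0133 over 8 and 0.00483 to 0.293 over the alternatives. The LPS difference was -0.33 ± 0.12 (adjusted p = 0.237), 0.0799 over 8 libraries and 0.0277 to 0.770 over the alternatives. A pseudogene, Akt2-ps, is 98.6% identical to Akt2 over 1449 bases and reached at most 0.199 TPM.

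The 2 kinases changed places between treatments. The ratio of Akt2 to Akt1 TPM was 0.848 and 0.838 in saline, 0.795 and 0.816 in BAFF, and 0.729 and 0.684 in LPS. It was 1.51 and 1.57 in norepinephrine and 1.46 and 1.07 in the libraries labelled APRIL. Akt1 was the more abundant kinase in the 6 libraries of the first 3 groups and Akt2 in the 4 others.

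Foxo1 encodes the transcription factor that insulin signalling keeps out of the nucleus (chr3:52268336-52353221, plus strand). Its level was 5.08 and 5.23 TPM in saline, 5.47 and 5.91 TPM in BAFF, 4.997 and 5.15 TPM in LPS, 7.51 and 7.27 TPM in norepinephrine, and 12.1 and 7.78 TPM in the libraries labelled APRIL. LPS overlapped saline, while norepinephrine lay above it. The norepinephrine difference was 0.45 ± 0.18, with an adjusted p of 0.261 over 10 libraries, 0.0433 over 8 and 0.0320 to 0.614 over the alternatives. Foxo1 rose in the libraries labelled APRIL by 0.80 ± 0.18 (adjusted p = 0.00604), and by 0.51 without APRIL replicate 1. Against BAFF the same call (adjusted p = 0.0129) was lost without BAFF replicate 1 and when those 4 libraries alone were fitted, with 0.0699 as the highest value over the alternatives.

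Tbc1d4 encodes AS160, the Akt substrate that restrains GLUT4 vesicles (chr14:101442360-101609191, minus strand). Its level was 6.51 and 7.44 TPM in saline, 6.43 and 8.38 TPM in BAFF, 4.70 and 5.17 TPM in LPS, 7.30 and 8.26 TPM in norepinephrine, and 2.89 and 2.61 TPM in the libraries labelled APRIL. LPS lay below saline without overlap. Its difference was -0.42 ± 0.15 (adjusted p = 0.207), 0.149 over 8 libraries and 0.0422 to 0.721 over the alternatives. Tbc1d4 fell in the libraries labelled APRIL by 1.09 on the log2 scale (SE 0.15, adjusted p = 0.000575), and it passed in all 19 alternatives.

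Slc2a4 encodes GLUT4 and is the end point of the pathway in fat and muscle (chr11:69942539-69948188, minus strand). Its level was 16.9 and 14.6 TPM in saline, 14.9 and 17.2 TPM in BAFF, 3.67 and 5.04 TPM in LPS, 19.8 and 20.4 TPM in norepinephrine, and 5.78 and 1.57 TPM in the libraries labelled APRIL. The 4 libraries of LPS and APRIL were all below 6 TPM and the 6 others all above 14 TPM. The LPS mean was 0.277 times that of saline and the difference -1.65 ± 0.39, with an adjusted p of 0.0638 over 10 libraries and 0.00291 over 8. It ran from 0.00221 to 0.309 over the alternatives, with a size between -1.84 and -1.47. It was also called with either 1 of the libraries labelled APRIL left out, and when the saline and LPS libraries alone were fitted. Norepinephrine differed from saline by 0.34 ± 0.39 (adjusted p = 0.701, and 0.225 over 8 libraries) and passed in none of the 21 alternatives. Slc2a4 fell in the libraries labelled APRIL, with a difference of -2.001 ± 0.39 (adjusted p = 0.00296), and of -1.30 without APRIL replicate 2.

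Adipocyte markers differed between the groups as well. The 16 adipocyte markers summed to 6391 and 7063 TPM in LPS, 9103 and 10215 TPM in saline, and 16577 and 17185 TPM in norepinephrine. Of the 15 tested, 0 passed under LPS and 1 (Lpin1) rose under norepinephrine over 10 libraries. Over 8 libraries 5 were called lower and 1 higher under LPS (2.34% and 4.55% of all genes), and 9 were called higher under norepinephrine (5.04% of all genes). Adipoq, which encodes the fat cell hormone adiponectin, was at 925 and 1062 TPM in saline and 379 and 549 TPM in LPS. Slc2a4 per 1000 TPM of Adipoq was 18.3 and 13.7 in saline, 16.2 and 15.6 in BAFF, 9.69 and 9.19 in LPS, 21.6 and 21.8 in norepinephrine, and 19.3 and 15.6 in the libraries labelled APRIL. The log2(TPM + 1) of Slc2a4 minus the mean of the adipocyte markers was -2.94 and -3.23 in saline, -3.09 and -3.14 in BAFF, -4.45 and -4.20 in LPS, -3.36 and -3.36 in norepinephrine, and -3.97 and -4.05 in the libraries labelled APRIL. LPS was thus below saline by both measures. The libraries labelled APRIL and norepinephrine were below saline relative to the marker mean and not relative to Adipoq, so their place depended on the marker chosen. Fibroblast and progenitor markers (12) summed to 11223 and 10712 TPM in LPS and 11399 and 10161 TPM in saline, and 3 of 11 tested (Dcn, Pi16 and Pdgfra) rose under LPS, with Dcn at a mean of 933 TPM against 150.3 TPM, where 2.87% of all genes rose. The median difference of the 11 was -0.10. Smooth muscle and pericyte markers summed to 1143 and 1305 TPM in LPS and 942 and 1094 TPM in norepinephrine, against 1560.1 and 1649 TPM in saline. Under LPS 2 of 8 (Myh11 and Cspg4) fell over 10 libraries, where 3.8% of all genes were called in either direction. Over 8 libraries only Cspg4 was called lower under LPS, where 2.34% of all genes were. Under norepinephrine 0 passed over 10 libraries. Over 8, Cspg4 and Acta2 were called there, 1 higher and 1 lower, where 6.22% of all genes were called. None of the 10 macrophage or 7 endothelial markers tested passed under LPS or norepinephrine over 10 libraries. Over 8 libraries the endothelial marker Cdh5 was called lower under LPS, and no other marker of these 2 lists passed under either treatment. The part of adipocyte and fibroblast content in the differences of the 9 genes was not tested. Slc2a4 relative to adipocyte markers is a description only. The skeletal muscle sum, of interest because muscle also expresses Slc2a4, was 21.3 and 153 TPM in LPS and 23.9 and 181 TPM in saline. It was 34.6 and 137 TPM in BAFF, 34.1 and 244 TPM in norepinephrine, and 168 and 38.0 TPM in the libraries labelled APRIL. Within 4 of the 5 groups, all but saline, the library with the higher muscle sum also had the higher Slc2a4. The part of muscle RNA was not tested.

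Slc2a1 encodes GLUT1, the transporter that does not depend on insulin. It was at 70.5 and 62.5 TPM in saline, 82.1 and 69.6 TPM in BAFF, 130.1 and 95.3 TPM in LPS, 95.2 and 81.8 TPM in norepinephrine, and 244 and 89.3 TPM in the libraries labelled APRIL. Every LPS library was above every saline library, but the difference of 0.74 ± 0.40 did not pass (adjusted p = 0.437, and 0.0565 over 8 libraries). The ratio of Slc2a1 to Slc2a4 TPM was 4.18 and 4.28 in saline, 5.51 and 4.06 in BAFF, and 4.80 and 4.02 in norepinephrine. It was 35.4 and 18.9 in LPS and 42.1 and 57.0 in the libraries labelled APRIL. GLUT1 RNA was thus the more abundant in all 10 libraries, by a factor that did not overlap between these sets of groups.

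**Figure D3:**
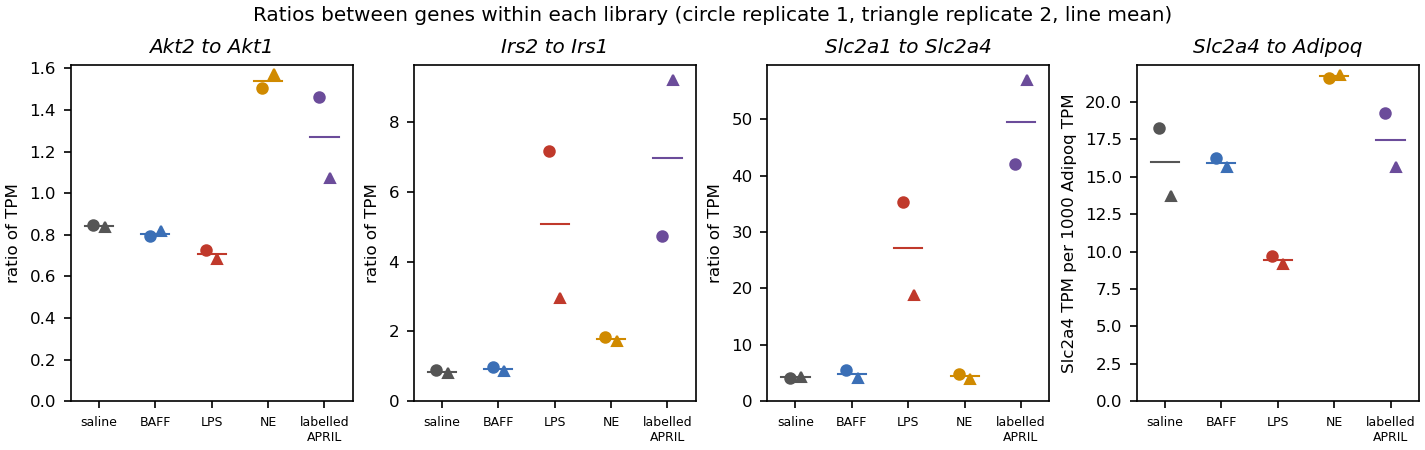
Ratios of TPM within each library (y axes, from 0) by treatment group (x axis): Akt2 to Akt1, Irs2 to Irs1, Slc2a1 to Slc2a4, and Slc2a4 per 1000 TPM of Adipoq. Circles are replicate 1, triangles replicate 2 and lines the mean of 2. Akt2 exceeds Akt1 in norepinephrine (1.51 and 1.57), and the ratio of Slc2a1 to Slc2a4 is 18.9 or more in LPS and in the libraries labelled APRIL.

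LPS and norepinephrine were set against each other directly. Akt2 and Slc2a4 fell in LPS relative to norepinephrine, 2 of 9 genes where 7.81% of all genes were called and 4.19% fell. Akt2 differed by -1.01 ± 0.12 (adjusted p = 0.00506) and passed in all 21 alternatives. Slc2a4 differed by -1.99 ± 0.39 (adjusted p = 0.0242), with 0.000792 to 0.118 over the alternatives. Its call was lost without BAFF replicate 1 (0.0515), BAFF replicate 2 (0.0516), LPS replicate 1 (0.118), LPS replicate 2 (0.0759), norepinephrine replicate 1 (0.114) or norepinephrine replicate 2 (0.0977), and without the low-level filter (0.0605). With the replicate number as a block Tbc1d4 was called too, at -0.56 ± 0.13 (adjusted p = 0.0479, against 0.0638 without it), where 9.22% of all genes were called. Over 8 libraries 6 genes were called lower in LPS (Insr, Irs1, Akt2, Foxo1, Tbc1d4 and Slc2a4), against 16.0% of all genes called there and 10.1% called lower. The median difference over the 9 genes was -0.56, against -0.04 for all genes. Irs2 did not pass between the 2 treatments (-0.26 ± 0.16, adjusted p = 0.370), nor did Akt1 (0.11 ± 0.11, adjusted p = 0.589).

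A moderated F-test over saline, BAFF, LPS and norepinephrine called Akt2 (adjusted p = 0.0161) and Irs2 (adjusted p = 0.0365), 2 of 9 genes where 4.68% of all genes were called. The Irs2 call was lost without any 1 of the 8 libraries tested (0.0720 to 0.127) and without the low-level filter (0.0758). The Akt2 call was lost without LPS replicate 1 (0.0824) or 2 (0.0563) and without norepinephrine replicate 1 (0.0890) or 2 (0.0926). Slc2a4 was next, at an adjusted p of 0.0626. Over the 8 libraries alone 6 of the 9 genes passed, with Slc2a4 at 0.00323, Akt2 at 0.00513 and Irs2 at 0.00622, against 12.8% of all genes. Insr (0.0175), Irs1 (0.0347) and Foxo1 (0.0495) were the 3 others. Over all 5 groups 8 of 9 genes passed, where 60.4% of all genes did, and Insr (adjusted p = 0.0551) did not. Irs1 passed narrowly there (adjusted p = 0.0497) and was lost with the replicate number as a block (0.0705), where 63.0% of all genes were called. It was also lost without the low-level filter (0.115), without the variance trend (0.0552) and without any 1 of the saline, BAFF, LPS and norepinephrine libraries (0.0632 to 0.295). Pik3r1 (adjusted p = 0.0163) was lost without BAFF replicate 2 (0.0504) or APRIL replicate 2 (0.0574).

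The other genes of the pathway were taken from 6 lists: receptor and adaptors, PI3-kinase with Akt and mTOR, GLUT4 vesicles, glucose transporters, FoxO factors with their targets, and regulators of Slc2a4 transcription. They hold 128 genes beside the 9, of which 120 were tested. Under LPS 4 rose and 3 fell, with a median difference of 0.02 over the 120. Under norepinephrine 1 rose and 1 fell, and under BAFF 0 of 120 passed in either fit. These are 5.83% of the 120 under LPS and 1.67% under norepinephrine, against 3.8% and 0.699% of all genes. Over the 8 libraries 11 were called higher and 10 lower under LPS, and 15 higher and 2 lower under norepinephrine, 17.5% and 14.2% of the 120 against 6.89% and 6.22% of all genes. Between LPS and norepinephrine 5 of the 120 were higher and 6 lower in LPS over 10 libraries, and 6 and 21 over 8. These are 9.17% and 22.5% of the 120, against 7.81% and 16.0% of all genes. The 11 called over 10 were Socs1, Socs3, Slc2a6, Stxbp3 and Rela, higher in LPS, and Irs3, Pde3b, Ralgapa2, Pck1, Bcl6 and Esr1, lower. Irs4, another substrate gene, was at 0 TPM in all libraries and was not tested.

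Among receptor and adaptor genes (20 tested), Socs1 and Socs3 rose under LPS. Both encode inhibitors that bind the insulin receptor and its substrates and are induced by inflammatory cytokines. Socs1 was at 3.92 and 4.36 TPM in saline and 11.4 and 12.8 TPM in LPS, a difference of 1.35 ± 0.19 (adjusted p = 0.00965). Socs3 went from 65.9 and 61.4 TPM to 115 and 94.1 TPM, a difference of 0.70 ± 0.12 (adjusted p = 0.0246). Over 8 libraries the adjusted p was 0.00811 for Socs1 and 0.0245 for Socs3, and the LPS libraries did not overlap saline for either gene. The norepinephrine libraries were below saline for both (Socs1 at 2.14 and 3.22 TPM, Socs3 at 49.4 and 47.4 TPM) without passing.

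Sh2b2, which encodes an adaptor of the receptor, and Irs3, a rodent substrate gene, were named after their values were seen. Sh2b2 was at 8.70 and 8.72 TPM in saline, 18.4 and 14.8 TPM in LPS and 23.2 and 22.6 TPM in norepinephrine. It passed over 8 libraries in both comparisons (adjusted p 0.0133 and 0.00636) and in neither over 10 (0.257 and 0.116). Irs3 was at 3.66 and 4.33 TPM in saline, 1.76 and 2.07 TPM in LPS, and 7.16 and 8.55 TPM in norepinephrine. Its differences of -0.78 ± 0.19 and 0.82 ± 0.19 had adjusted p of 0.0690 and 0.0878 over 10 libraries and 0.0288 and 0.0279 over 8. Irs1, Irs2 and Irs3 thus showed 3 patterns of level over saline, LPS and norepinephrine.

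Among 28 tested genes of PI3-kinase, Akt and mTOR, Trib2 rose and Trib3 fell under LPS. Trib3 encodes a pseudokinase that binds Akt. It was at 36.2 and 40.7 TPM in saline, 7.18 and 9.57 TPM in LPS, 12.9 and 13.8 TPM in norepinephrine, and 131 and 92.7 TPM in the libraries labelled APRIL. It fell by 2.08 on the log2 scale under LPS (SE 0.18, adjusted p = 0.00144) and by 1.45 under norepinephrine (SE 0.18, adjusted p = 0.0280), with 0.00132 and 0.00607 over 8 libraries. Trib2, of the same family, rose from 4.62 and 3.88 TPM to 9.31 and 8.17 TPM under LPS (0.89 ± 0.18, adjusted p = 0.0395, and 0.0327 over 8 libraries). Pde3b, which encodes the phosphodiesterase through which insulin opposes fat breakdown, was named after its values were seen. It was at 44.5 and 36.9 TPM in saline, 33.0 and 34.2 TPM in LPS, and 108 and 102 TPM in norepinephrine, where the difference of 1.35 ± 0.32 had an adjusted p of 0.0961 over 10 libraries and 0.00449 over 8.

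Of 33 tested genes of GLUT4 vesicles, Cav1 fell under LPS and no gene passed under norepinephrine. Cav1 encodes the coat protein of caveolae, membrane pits rich in fat cells. It was at 476 and 508 TPM in saline, 233 and 296 TPM in LPS, and 267 and 303 TPM in norepinephrine. The LPS difference was -0.90 ± 0.16 (adjusted p = 0.0231, and 0.0166 over 8 libraries). The norepinephrine difference was -0.79 ± 0.16 (adjusted p = 0.0705, and 0.0298 over 8 libraries). The median of the 33 genes was -0.04 under LPS and 0.03 under norepinephrine, against -0.01 and 0.04 for all genes.

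Of 10 other facilitative hexose transporter genes 7 were tested, and 0 of 7 passed under LPS, norepinephrine or BAFF over 10 libraries. Slc2a3, which encodes the high-affinity transporter GLUT3, was named after its values were seen. It was at 11.9 and 11.2 TPM in saline, 28.8 and 18.1 TPM in LPS, and 29.8 and 30.5 TPM in norepinephrine. The differences of 0.93 ± 0.23 and 1.31 ± 0.23 had adjusted p of 0.0774 and 0.0576 over 10 libraries and 0.0413 and 0.0189 over 8. Slc2a6, also named after its values were seen, was at 2.63 and 1.14 TPM in saline, 6.75 and 4.10 TPM in LPS and 1.17 and 1.10 TPM in norepinephrine. In LPS, Slc2a1, Slc2a3 and Slc2a6 were each above saline in both libraries, which was so for 24.2% of all genes. Slc2a4 was below, which was so for 25.5%. The median LPS difference of the 7 tested was 0.11, against -0.01 for all genes, and over 8 libraries only Slc2a3 of them was called.

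Of 18 tested FoxO factors and targets, Pck1 rose under norepinephrine. It encodes the enzyme that starts glyceroneogenesis in fat cells, and insulin is known to repress it. It was at 3.62 and 4.20 TPM in saline, 1.32 and 1.57 TPM in LPS, and 56.1 and 51.3 TPM in norepinephrine, a difference of 3.48 ± 0.41 (adjusted p = 0.0258, and 0.000426 over 8 libraries). Pdk4, a kinase gene whose product slows glucose oxidation, was named after its values were seen. It was at 12.4 and 15.1 TPM in saline, 34.1 and 25.3 TPM in LPS, and 144 and 125 TPM in norepinephrine (3.20 ± 0.60, adjusted p = 0.0632, and 0.00311 over 8 libraries). Over the 8 libraries 6 of the 18 were called higher and 0 lower under norepinephrine, where 5.04% of all genes were called higher. Under LPS 1 was called higher and 3 lower, where 4.55% and 2.34% of all genes were.

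Among 15 regulators of Slc2a4 transcription, Rela rose and Esr1 fell under LPS. Rela encodes the p65 subunit of NF-kB and went from 30.4 and 29.0 TPM to 45.5 and 42.5 TPM (0.55 ± 0.11, adjusted p = 0.0318, and 0.0252 over 8 libraries). Esr1 encodes the oestrogen receptor and went from 3.62 and 3.44 TPM to 1.99 and 1.99 TPM (-0.60 ± 0.12, adjusted p = 0.0349, and 0.0245 over 8 libraries). Klf15, a zinc finger factor gene named after its values were seen, was at 5.33 and 6.18 TPM in saline and 1.91 and 1.77 TPM in LPS, a difference of -1.25 ± 0.27 with an adjusted p of 0.0505 over 10 libraries and 0.00515 over 8. Over the 8 libraries 2 of the 15 were called higher under LPS (Rela and Nfkb1), where 4.55% of all genes were. Klf15, Esr1 and Cebpa (3 of 15) were called lower, where 2.34% of all genes were. Under norepinephrine Pparg, Cebpa and Srebf1 (3 of 15) were called higher and 0 lower, where 5.04% of all genes were called higher.

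With the libraries labelled APRIL, 55 of the 120 genes rose and 23 fell, so that 65.0% of the 120 were called. Of all genes 58.1% were called, 33.1% higher and 25.0% lower. The genes with the smallest p per list were Socs3 (1.69 ± 0.12), Cblb (2.07 ± 0.17), Sos1 (1.45 ± 0.13) and Ptpn1 (1.65 ± 0.16) among adaptors. Gsk3b (1.55 ± 0.10), Akt1s1 (1.71 ± 0.12) and Rictor (1.25 ± 0.12) were among those with the smallest p in the PI3-kinase, Akt and mTOR list. Vamp2 (1.10 ± 0.09), which encodes a vesicle fusion protein, Exoc2 (1.08 ± 0.10) and Exoc5 (1.00 ± 0.11) of the exocyst rose, and Cav1 (-1.43 ± 0.16) fell. Among transporters Slc2a6 (1.36 ± 0.30) and Slc2a1 (1.14 ± 0.40, adjusted p = 0.0404) rose and Slc2a10 (-1.74 ± 0.20) fell. FoxO factors and targets were led by Gadd45a (4.07 ± 0.22), Bcl6 (2.68 ± 0.15), Ppargc1a (3.30 ± 0.19) and Foxo3 (1.71 ± 0.12), and regulators of Slc2a4 by Mef2a (1.42 ± 0.09), Mef2d (2.37 ± 0.16), Rela (1.37 ± 0.11) and Nfic (1.08 ± 0.15).

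**Figure D4:**
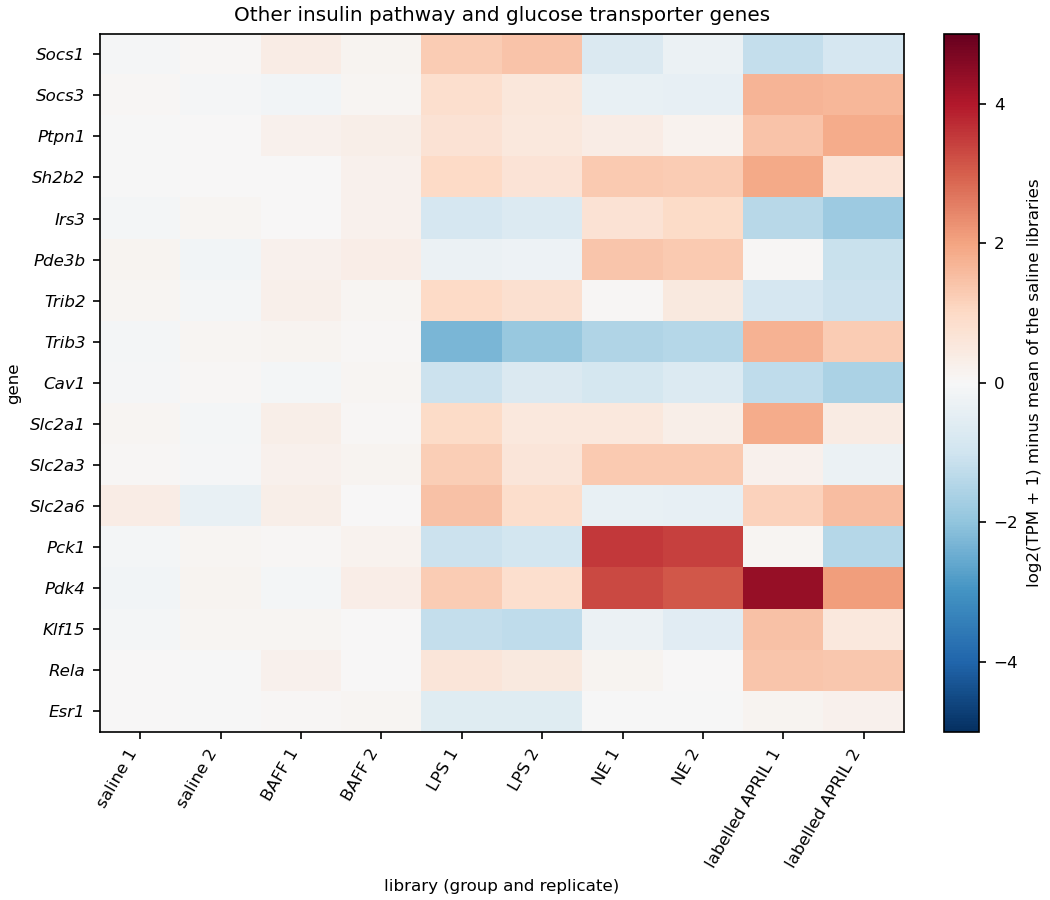
Level of 17 other pathway genes (y axis) in each library (x axis), as log2(TPM + 1) minus the mean of the saline libraries (colour scale, -5 to 5). Socs1 and Socs3 are raised in LPS, Pck1 and Pdk4 in norepinephrine, Trib3 is lowered in both, and the BAFF libraries stay close to saline.

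The 9 genes were compared in pattern over the 8 libraries of saline, BAFF, LPS and norepinephrine, with 2 libraries of each group, by Pearson's r of log2(TPM + 1). These correlations describe 8 points that share groups of treatment, and no p is given. Insr, Foxo1 and Akt2 followed each other, with r of 0.99 for Insr and Foxo1, 0.96 for Insr and Akt2 and 0.95 for Akt2 and Foxo1. Irs1, Tbc1d4 and Slc2a4 formed the other close set, with r of 0.95 for Irs1 and Slc2a4, 0.93 for Irs1 and Tbc1d4 and 0.91 for Tbc1d4 and Slc2a4. Irs2 was less close to either set, with r of 0.61 with Insr and 0.64 with Foxo1, -0.34 with Irs1 and -0.19 with Slc2a4. Its lowest r was -0.69, with Akt1. The first set is high in norepinephrine and the second low in LPS, as the library values above show.

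**Figure D5:**
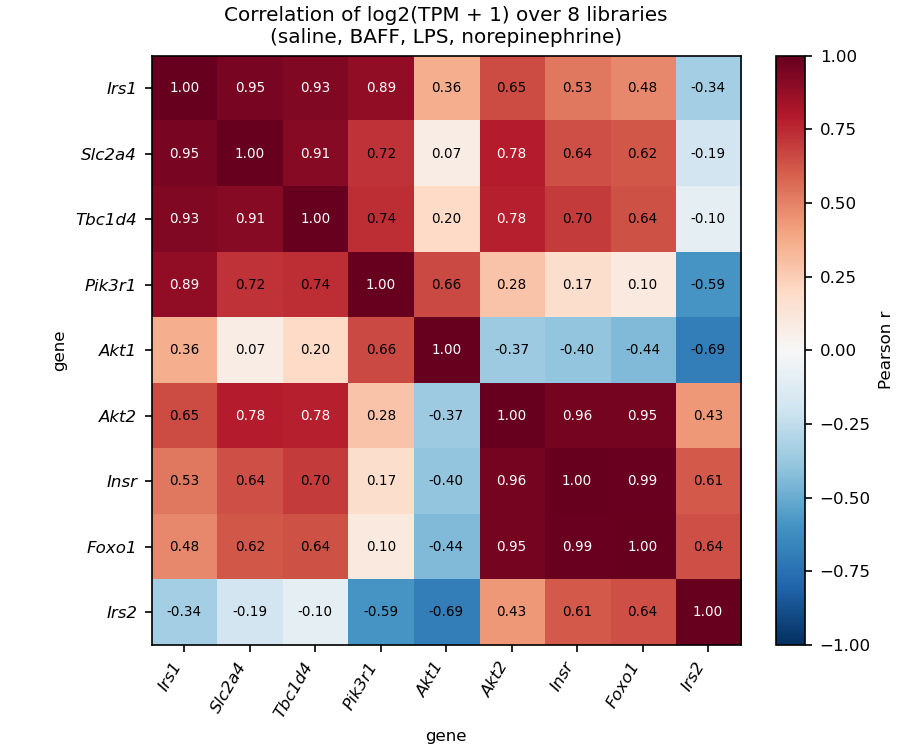
Pearson's r between each pair of the 9 genes (both axes) over 8 libraries, on log2(TPM + 1), without the libraries labelled APRIL. Irs1, Slc2a4 and Tbc1d4 are correlated at 0.91 to 0.95, Akt2, Insr and Foxo1 at 0.95 to 0.99, and Irs2 is negative with 5 of the 8 other genes.

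Likeness was also measured against 9678 genes whose mean over these 8 libraries reached 5 TPM. The closest to Slc2a4 were Dbt (r = 0.990), Cd59b and A530016L24Rik. Dbt encodes a subunit of the complex that breaks down branched-chain amino acids, and its group means were 18.8 TPM in saline, 10.9 TPM in LPS and 22.2 TPM in norepinephrine. The closest to Irs1 were Htra3, Lgals12 and Adipoq (r of 0.993 to 0.994), the last being the adiponectin gene. The closest to Akt2 were Sdhb, Uqcr11 and Grpel1 (r of 0.997 to 0.998), which encode mitochondrial proteins, and Sdhb had group means of 92.2 TPM in saline, 77.9 TPM in LPS and 129 TPM in norepinephrine. The closest to Irs2 were Sh2b2, Vegfa and Stat5a (r of 0.98 each), and Vegfa, a growth factor gene for blood vessels, had group means of 270.0 TPM in saline, 439 TPM in LPS and 521 TPM in norepinephrine. Insr was closest to Oxr1, Cda and Mtfmt, Foxo1 to Sfxn1, Zfp655 and Pex6, and Tbc1d4 to Car5b, Deptor and Acss3. Pik3r1 was closest to Naa50, H1fx and Mbnl1, and Akt1 to Pfdn6, Txndc11 and Smc3.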

How the data were processed

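RNA-seq values of 10 libraries were used as deposited: the values are TPM per Ensembl gene ID, per the file headers. Quantification with kallisto and the mm10 genome are named in the submitters' processing notes, and the kallisto version is not given in the sources used here. Symbols and positions came from GENCODE M21 (27458 of 28987 IDs matched). Promoter sequences came from RefSeq, and the transcript sequences searched for copies from GENCODE M21.

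A gene was kept if 2 or more libraries reached 1 TPM. Log2(TPM + 1) values of all 10 libraries then entered limma 3.58.1 (R 4.3.3) together, with a mean-variance trend, a mean for each of 5 groups, 5 residual degrees of freedom and no block. The script was tested on simulated data with 200 changed genes. Promoters were searched in Python 3.11.15, copies with BLAST 2.17.0, and figures drawn in matplotlib 3.10.9.

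Named were the 9 genes, up to 4 called genes per list and comparison with saline, and the 3 genes closest in pattern to each; others are marked as named after their values were seen. A gene that this rule names is not reported here. The 9 genes and all lists were chosen with earlier results of these data known.

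The replicate numbers of the labels were checked as a pairing. Deviations from group means of same-numbered libraries correlated at 0.272 to 0.479 in the 6 pairs among saline, BAFF, LPS and norepinephrine, and at -0.108 to 0.0264 in the 4 pairs with the libraries labelled APRIL. A replicate block was therefore also fitted over the 8 libraries without the latter, an alternative added after seeing the data.

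Ratios are given without a test. Gene set tests and protein sequences were not used here.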

Additional observations from a re-analysis of the deposited data

How the results depend on the processing

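Counts of genes past 0.05 depended on which libraries shaped the spread. The counts for all genes were 539 for LPS, 99 for norepinephrine, 2 for BAFF, 1107 for LPS against norepinephrine and 663 over these 4 groups; those among the 9 genes were 0, 1, 0, 2 and 2. Without the libraries labelled APRIL the counts for LPS, norepinephrine, LPS against norepinephrine and the 4 groups were 946, 854, 2192 and 1757 for all genes and 3, 4, 6 and 6 for the 9. With the replicate block as well, added after seeing the data, they were 1705, 1740, 3188 and 3058, and 6, 4, 6 and 8. The replicate block over 10 libraries moved norepinephrine to 167 genes and changed 2 calls among the 9 (Tbc1d4 in LPS against norepinephrine, adjusted p = 0.0479, and Irs1 over 5 groups, 0.0705) and no other. With only the libraries compared, LPS called 366 genes and 1 of the 9, and norepinephrine 264 genes and 3 of the 9. BAFF called 0 genes there, and the 4 groups 1757 genes and 6 of the 9. A pseudocount of 0.1 gave 494 genes and 1 of the 9 for LPS and 0 genes for BAFF. For norepinephrine it gave 43 genes and 0 of the 9. A pseudocount of 0.5 gave 532 genes and 1 of the 9 for LPS, and 69 genes and 0 of the 9 for norepinephrine. Without a filter norepinephrine had 55 genes and 0 of the 9, BAFF 12 genes, LPS against norepinephrine 719 genes and 1 of the 9, and the 4 groups 413 genes and 1 of the 9. A filter of 5 TPM, which kept 10874 genes, gave 544 genes and 1 of the 9 for LPS. Median-ratio scaling gave 572 genes and 1 of the 9 for LPS, and 145 genes and 2 of the 9 for norepinephrine. For norepinephrine the counts were 62 genes and 0 of the 9 without the variance trend, and 60 genes and 0 of the 9 without mitochondrially encoded genes.

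Leaving out 1 library at a time gave 112 to 943 genes and 0 to 3 of the 9 for LPS, 0 to 849 and 0 to 4 for norepinephrine, and 2 to 4 genes for BAFF. It gave 217 to 2181 and 1 to 6 for LPS against norepinephrine, and 136 to 1761 and 0 to 6 over the 4 groups. For the libraries labelled APRIL it gave 6391 to 8166 genes and 6 to 8 of the 9 against saline and 6231 to 8117 and 5 to 8 against BAFF, and over 5 groups 7396 to 8199 and 6 to 9. The group left with 1 library is assumed to vary like the others. Among the 9 genes, no value called in the fit over all 10 libraries changed sign in any alternative. In the libraries labelled APRIL against saline, 3 genes not called in that fit took both signs over the alternatives. Their differences ran from -0.37 to 0.31 for Insr, -0.27 to 1.03 for Irs1 and -0.30 to 0.01 for Akt2. The causes were not tested. The fit over 5 groups has no separate version with only the libraries compared.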
